A study of Mus musculus with 12 samples.

Results

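The regions described here were open in asynchronous mouse embryonic stem cells (ESCs) and on sorted mitotic chromosomes but were not called in mitotic ESCs. They were chosen by the peak calls themselves: overlapping or touching peaks of all 12 ATAC-seq libraries were joined on chromosomes 1 to 19 and X, and a merged region was kept when at least 3 of the 4 asynchronous libraries, at least 3 of the 4 chromosome libraries and none of the 4 mitotic libraries had a peak in it. This rule held for 498 of the 231395 merged regions, or 0.215%. ATAC-seq uses a transposase that inserts sequencing adapters into open DNA. It was performed on a wild-type (WT) line and on a Suv39h dn line, which lacks both Suv39h1 and Suv39h2, the enzymes that trimethylate histone H3 at lysine 9 (H3K9me3) in heterochromatin. Each line was grown with LIF and assayed as untreated asynchronous ESCs, as ESCs arrested with demecolcine and collected in mitosis, and as chromosomes of arrested cells stained with Hoechst 33258 and chromomycin A3 and isolated by flow cytometry, with 2 libraries for each of the 6 combinations. Each genotype is represented by 1 line, so that the genotype and the line cannot be told apart. Nothing in the labels says that the 2 libraries of a group came from separate cultures, so the spread between these libraries may be technical.

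In mitosis most transcription stops, many transcription factors leave the condensed chromosomes and a part of the open sites of interphase stays accessible, mainly at promoters. Promoters of housekeeping genes lie in GC-rich DNA and hold open, nucleosome-depleted stretches just upstream of the start of transcription. Retrotransposons are another source of accessible DNA in ESCs. Full-length mouse LINE-1 elements begin with a GC-rich promoter of repeated units, followed by a pair of long reading frames, and in ESCs H3K9me3 placed by the Suv39h enzymes marks many of them.

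The 498 regions fell into 4 classes. A summit, the base with the highest pileup, lay within 1 kb of an annotated start site in 301 regions (60.4%, exact Clopper-Pearson 95% interval 56.0 to 64.8%, which covers counting error only), of which 297 are treated below as promoters. A further 88 regions (17.7%) shared a first sequence, called family 1 here, and 50 regions (10.0%) shared a second one, called family 2. The remaining 63 regions (12.7%) were distal and belonged to neither family. The families were found by aligning the 201 bp around all member summits with each other and joining regions that matched with at least 80% identity over at least 100 bp. Apart from these families the matches gave a group of 4 regions and a few pairs. Since the families were built from the members, their share among the members is a description, and they were found after the data were seen.

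The sequences of 2 regions of family 1 are shown first, because this family is the largest set of distal members. Both are from the mm10 genome and are written on the strand of the long reading frames described below. Capitals mark a run of 20 bases that 59 of the 88 regions of family 1 held without a mismatch. Among all merged regions 1.81% held it. The first lies at chr8:33151603-33151803 in intergenic DNA 40593 bp from the start of the pseudogene Gm6877, and the second, on the minus strand, at chr8:98845024-98845224 in intergenic DNA 33773 bp from the start of the pseudogene Gm29817.
Family 1, near Gm6877: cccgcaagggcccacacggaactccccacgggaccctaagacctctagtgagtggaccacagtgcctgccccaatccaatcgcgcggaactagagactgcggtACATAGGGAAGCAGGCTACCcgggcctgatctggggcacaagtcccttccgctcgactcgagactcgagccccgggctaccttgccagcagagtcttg
Family 1, near Gm29817: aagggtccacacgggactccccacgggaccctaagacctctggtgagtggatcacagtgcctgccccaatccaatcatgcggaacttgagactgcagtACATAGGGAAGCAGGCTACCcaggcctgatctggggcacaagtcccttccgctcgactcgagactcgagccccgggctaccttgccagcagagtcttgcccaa

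For family 2 the capitals mark the YY1 motif, searched as AANATGGCG on both strands within 100 bp of the summit, which 40 of the 50 regions of this family held. YY1 is a zinc-finger factor that binds many promoters. The first region lies at chr11:73469804-73470004, 12396 bp from the start of the olfactory receptor gene Olfr380, and the second at chr8:44234388-44234588, 5943 bp from the start of the predicted gene Gm37972, and both are intergenic. No region of family 1 held the motif.
Family 2, near Olfr380: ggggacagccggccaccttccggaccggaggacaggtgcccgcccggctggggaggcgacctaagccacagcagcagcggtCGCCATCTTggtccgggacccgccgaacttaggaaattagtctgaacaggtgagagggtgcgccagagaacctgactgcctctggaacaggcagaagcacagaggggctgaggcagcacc
Family 2, near Gm37972: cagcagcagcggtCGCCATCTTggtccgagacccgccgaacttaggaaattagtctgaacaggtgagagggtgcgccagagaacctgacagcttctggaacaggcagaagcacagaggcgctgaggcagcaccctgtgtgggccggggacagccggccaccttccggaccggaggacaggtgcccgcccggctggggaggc

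Promoters of 3 single-copy members are shown next, because they are the largest class and because the capitals show how far apart the summits of the preparations lay. The sequences are those of RefSeq for GRCm38.p6 and run from 250 bases before the start of the transcript to 50 bases after it. Capitals run from the median summit of the asynchronous libraries to that of the chromosome libraries, or to the end of the printed sequence where the chromosome summit lay beyond it. At Ap2a2, which encodes a subunit of the AP-2 adaptor of clathrin-coated pits, the printed promoter is chr7:141561930-141562229 on the plus strand, and the chromosome summit lay upstream of the asynchronous one, at -243 against -137 bp from the RefSeq start. At Cpsf6, a subunit of the complex that cleaves messenger RNA before polyadenylation, it is chr10:117376924-117377223 on the minus strand, with the asynchronous summit at -88 bp and the chromosome summit at 96 bp. At Odf2l it is chr3:145118350-145118649 on the plus strand, with summits at -51 and 58 bp.
Ap2a2: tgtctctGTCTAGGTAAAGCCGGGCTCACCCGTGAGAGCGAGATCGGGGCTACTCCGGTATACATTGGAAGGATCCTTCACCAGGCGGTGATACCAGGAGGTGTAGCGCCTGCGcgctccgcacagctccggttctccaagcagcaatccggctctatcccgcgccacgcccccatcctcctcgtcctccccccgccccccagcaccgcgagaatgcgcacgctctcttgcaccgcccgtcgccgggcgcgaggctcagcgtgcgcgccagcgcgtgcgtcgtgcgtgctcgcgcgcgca
Cpsf6: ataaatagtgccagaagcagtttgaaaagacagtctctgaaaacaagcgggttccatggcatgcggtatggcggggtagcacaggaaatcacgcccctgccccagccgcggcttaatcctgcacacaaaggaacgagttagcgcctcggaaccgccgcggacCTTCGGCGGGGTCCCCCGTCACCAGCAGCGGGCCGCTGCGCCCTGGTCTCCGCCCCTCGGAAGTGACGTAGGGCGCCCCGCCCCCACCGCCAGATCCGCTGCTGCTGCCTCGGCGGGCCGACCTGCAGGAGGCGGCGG
Odf2l: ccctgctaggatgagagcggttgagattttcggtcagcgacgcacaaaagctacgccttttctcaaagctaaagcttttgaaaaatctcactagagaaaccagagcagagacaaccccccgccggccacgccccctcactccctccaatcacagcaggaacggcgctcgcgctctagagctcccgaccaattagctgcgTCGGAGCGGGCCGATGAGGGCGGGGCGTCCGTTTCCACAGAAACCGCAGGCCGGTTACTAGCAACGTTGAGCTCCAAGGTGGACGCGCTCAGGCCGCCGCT

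The comparison sets were regions called in at least 3 of 4 libraries of all 3 preparations (1228 regions), regions called in at least 3 of 4 asynchronous libraries and no other (8719) and regions called in at least 3 of 4 chromosome libraries and no other (9796). All counts over regions below are descriptions with no test, since regions of a library are not replicates of a preparation. Promoter summits made up 60.4% of the member regions, 76.9% of the regions of all 3 preparations, 17.0% of those of asynchronous cells alone, 39.2% of those of chromosomes alone and 22.9% of all merged regions. The 527 regions that met the rule but for a peak in 1 mitotic library had 77.6%. Outside the families, 297 of 360 member regions (82.5%) had a promoter summit. That share was 84.7% with 1 mitotic library, 77.1% in all 3 preparations and 24.1% in all merged regions. Of all members 25.9% were intergenic, 12.2% intronic and 1.41% exonic. The median GC content around summits was 63.2% both at members and with 1 mitotic library. It was 60.7% in all 3 preparations, 58.7% in chromosomes alone, 49.8% in asynchronous cells alone and 54.2% in all merged regions.

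**Figure D1:**
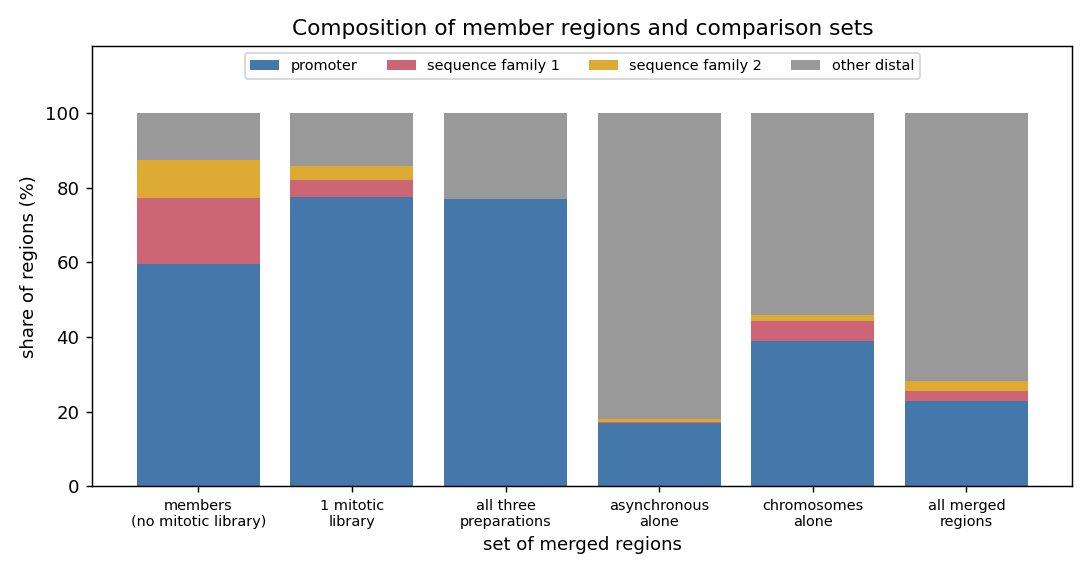
Share of regions, in percent, that were promoters, matched sequence family 1 or 2, or were other distal regions, for the 498 member regions, the 527 regions with a peak in 1 mitotic library, the comparison sets and all merged regions. Families 1 and 2 make up 17.7% and 10.0% of the member regions and 2.59% and 2.76% of all merged regions.

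The families, which were built from regions with no mitotic peak, were rare among regions that mitotic cells shared. Family 1 was matched by 88 member regions, by 3 of the 1228 regions of all 3 preparations, by 36 of those of asynchronous cells alone and by 521 (5.32%) of those of chromosomes alone. It was matched by 2.59% of all merged regions. Family 2 was matched by 50 member regions, 0 of the 1228 regions of all 3 preparations, 64 (0.734%) of those of asynchronous cells alone, 154 (1.57%) of those of chromosomes alone and 2.76% of all merged regions. Among the 527 regions just outside the rule, which had a peak in 1 mitotic library, 24 matched family 1 and 20 matched family 2, or 8.35% together.

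Around the family regions lay long reading frames. Within 8 kb of the summit, 38 of 88 regions of family 1 and 37 of 50 of family 2 had a stretch of at least 1000 codons without a stop, compared with 6 of the 360 other members and 55 of the 1228 regions of all 3 preparations. The median length of these frames was 1300 codons in both families. All 38 frames of family 1 and all 37 of family 2 ran on the same strand of the shared sequence. The frame began downstream of the summit in 36 and 37 of them, at a median of 1885 and 1771 bp. A further copy of the summit sequence lay within 3 kb in 83 of 88 regions of family 1 and 50 of 50 of family 2, at a median spacing of 202 and 211 bp. GC-rich tandem units ahead of a long reading frame are also the layout of LINE-1 elements described above. The genome sequence marked the windows as repeats over their whole length at the median of both families. Within 100 bp of the summit, 46 of the 88 regions of family 1 held without a mismatch at least 1 primer of the pair that the study's methods list for the L1 (LINE-1) promoter, and 38 held both primers within 8 kb. No region of family 2, no other member and 1 of the 1228 regions of all 3 preparations held such a primer near the summit. Family 1 therefore includes sequence to which this L1 promoter assay is directed. The pair listed for the second L1 reading frame matched no region of either family within 8 kb. The annotation used here names no repeats, and no element is named for family 2.

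Most family regions lay far from start sites, and some lay within genes. In family 1, 59 regions were intergenic, 27 intronic and 2 within 1 kb of a start site. In family 2 these counts were 38, 10 and 2. The median distance to the nearest start site was 33280 bp in family 1 and 26227 bp in family 2. Family 1 was found on 19 of the 20 chromosomes, with 6 regions on chromosome X, and family 2 on all 20, with 1 region on chromosome X.

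Many copies of both sequences exist in the genome, which limits where reads could be placed. The 75 bases at the summit had more than 1 exact match on these chromosomes in 46 of 88 regions of family 1, with a median of 2 and up to 1857 matches, and in 37 of 50 of family 2, with a median of 6.5 and up to 2330. Among the other members 13 of 360 (3.61%) had more than 1, and in all 3 preparations 162 of 1228 (13.2%). At 95% identity over the 201 bp, the median number of copies was 2795 in family 1 and 4077 in family 2. Which copies of a family were open can therefore not be told apart where the copies are identical, and the mapping quality that the authors required is not given in the sources used here.

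The number of member regions called differed between libraries. In asynchronous cells 330 and 473 of the 498 regions were called in the WT libraries, compared with 307 and 495 in the Suv39h dn libraries. On chromosomes these numbers were 403 and 464 for WT, compared with 441 and 414 for Suv39h dn. The calls were lowest in replicate 1 of both asynchronous groups, whose lists were also the shortest of their preparation, with 22295 (WT) and 24991 (Suv39h dn) peaks against 56760 and 80126 in replicate 2. All 8 libraries had a peak in 45 regions, 7 in 249 and 6 in 204. Only 3 of 4 asynchronous libraries had the region in 387 cases, and only 3 of 4 chromosome libraries in 270. In all 498 regions at least 1 asynchronous peak overlapped a chromosome peak directly. The regions had a median width of 330 bp and ranged from 92 to 941 bp.

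**Figure D2:**
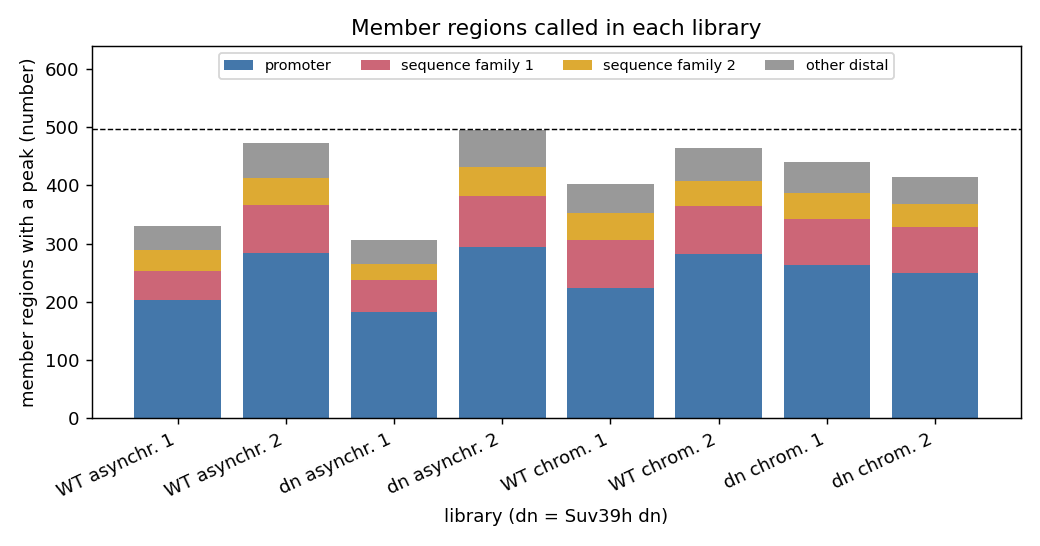
Number of the 498 member regions (dashed line) with a peak in each asynchronous and chromosome library, split by class; dn is Suv39h dn. Calls run from 307 to 495, and the 4 mitotic libraries, not drawn, have none by the rule.

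Just outside the rule lay 527 regions with a peak in 1 mitotic library, 1033 regions with 2 in place of 3 asynchronous libraries and 403 with 2 in place of 3 chromosome libraries. Of the 2850 regions called in at least 3 asynchronous and at least 3 chromosome libraries, 17.5% had no mitotic peak, 18.5% had 1 mitotic library, 20.9% had 2, 26.5% had 3 and 16.6% had all 4. Where 1 mitotic library had the region, it was Suv39h dn replicate 2 in 287 of the 527 cases, WT replicate 2 in 194, WT replicate 1 in 39 and Suv39h dn replicate 1 in 7. This order was that of the list lengths, which were 14288, 13281, 6471 and 1729 peaks. A mitotic peak lay within 1 kb of 76 of the 498 members.

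The rank of the members within a list differed between preparations, whereas their fold did not separate them. The fold enrichment that MACS2 gave a peak was turned into its percentile within its own list, with 100 the highest. At promoter members the median percentile was 48.1 and 59.3 in the WT asynchronous libraries, 44.7 and 66.7 in Suv39h dn, 74.4 and 79.4 on WT chromosomes and 75.6 and 75.4 on Suv39h dn chromosomes. The rank was thus higher in each chromosome list, but the lists differ in length and make-up. The median fold itself overlapped, with 5.14, 6.65, 4.97 and 7.40 in the asynchronous libraries and 5.05, 5.83, 5.02 and 5.67 on chromosomes.

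Family 1 had the highest percentiles of the classes in the chromosome lists. Its median percentile was 84.9 and 91.7 on WT chromosomes and 91.8 and 91.5 on Suv39h dn chromosomes, compared with 29.8 and 47.2 in WT asynchronous cells and 29.1 and 67.8 in Suv39h dn asynchronous cells. Family 2 had 74.4 and 89.6 on WT chromosomes, 71.8 and 85.7 on Suv39h dn chromosomes, 24.2 and 40.6 in WT asynchronous cells and 29.1 and 56.1 in Suv39h dn asynchronous cells. The percentiles of the preparations did not overlap in either family, and those of the other distal members did, with 42.9 to 66.3 in asynchronous cells and 54.8 to 62.0 on chromosomes. The median fold of family 1 overlapped, with 4.35, 5.99, 4.27 and 7.53 in asynchronous cells and 5.63 to 6.96 on chromosomes. The enrichment over the lowest background of a library had a median of 26.4 in asynchronous cells and 31.4 on chromosomes in family 1, 25.5 and 25.6 in family 2, and 33.7 and 28.1 at promoters. These values come from the peaks that chose the members and carry no test.

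**Figure D3:**
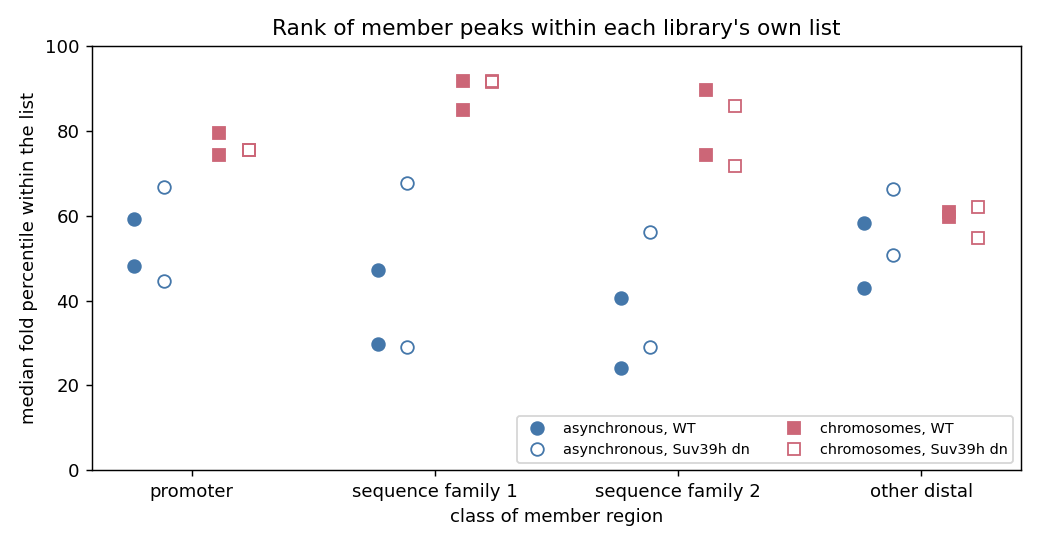
Median percentile of the fold enrichment of member peaks within each library's own list (0 to 100), by class of member region, with 1 point per library. In both families the chromosome libraries (71.8 to 91.8) lie above the asynchronous libraries (24.2 to 67.8), whereas the other distal members overlap.

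Single members show the size of these peaks. The number of fragments at a summit could be recovered from the fold and the p-value of each peak. The region near Gm29817, shown above, had 5 fragments at its summit in WT asynchronous replicate 1 and 8 in replicate 2. It was not called in Suv39h dn asynchronous replicate 1 and had 14 in replicate 2. On chromosomes it had 31 and 37 fragments in the WT libraries, 26 and 33 in those of Suv39h dn, all above the asynchronous values. The region near Gm6877 had the reverse order in one library, with 34 fragments in Suv39h dn asynchronous replicate 2, against 6 to 13 on chromosomes.

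An intronic region of Lrp1b, which encodes a low-density lipoprotein receptor family member, belonged to neither family and had the highest rank of the members called in all 4 WT and 3 of the 4 Suv39h dn libraries. It lies at chr2:41896161-41896270, with a GC content of 46.8%. Its fold was 6.96 and 10.7 in WT asynchronous cells and 13.8 in Suv39h dn replicate 2, with no call in replicate 1. The WT chromosome libraries had folds of 26.7 and 33.2 and those of Suv39h dn 17.5 and 26.8, again all above the asynchronous libraries. Of the window around its summit 70.6% was marked as repeat.

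The promoter members belonged to 307 protein-coding genes, or 1.41% of the 21728 protein-coding genes annotated on these chromosomes. A protein-coding start site lay within 1 kb in 283 of the 297 promoter regions, and start sites on both strands in 72 (24.2%), compared with 303 of 944 promoters (32.1%) of all 3 preparations.

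The 15 members named by rank had a peak in all 8 libraries and the highest mean percentile among these. In the order of that rank they were the promoter regions of Ap2a2, Cpsf6 and Zscan18, an intergenic region of family 1 near the pseudogene Olfr408-ps1, a second region of Zscan18, and the promoter regions of Zfhx3, Gm21182, Ccdc59 with Mettl25, Arhgef5, Crh, Dyrk2, Nadk2, D10Wsu102e, Osgin2 and Odf2l. Zscan18 and Zfhx3 encode zinc-finger proteins, Crh the corticotropin-releasing hormone, Dyrk2 a protein kinase and Nadk2 the mitochondrial NAD kinase.

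At Ap2a2 (chr7:141561845-141562149) the summit had 7 and 9 fragments in WT asynchronous cells, 7 and 7 in Suv39h dn asynchronous cells, 14 and 18 on WT chromosomes and 11 and 12 on Suv39h dn chromosomes. These fragment numbers depend on depth, and the folds overlapped, with 6.07 to 7.09 in asynchronous cells and 7.04 to 9.53 on chromosomes. At Nadk2 (chr15:9094457-9094746) the order was the reverse, with 7 and 13 fragments in WT asynchronous cells, 7 and 22 in those of Suv39h dn, against 5 in each WT chromosome library and 5 and 6 in the Suv39h dn chromosome libraries. At Cpsf6 (chr10:117376799-117377152) the preparations overlapped, with 6 and 13 fragments in asynchronous WT cells, 6 and 14 in asynchronous Suv39h dn cells, 8 and 8 on WT and 6 and 9 on Suv39h dn chromosomes.

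Zscan18 held 2 members at separate start sites. The region at chr7:12803076-12803735 had folds between 4.74 and 8.53 over the 8 libraries, and that at chr7:12779885-12780821, which also lies at a start of 1700047O18Rik, between 4.17 and 10.4. In both regions the highest value was in Suv39h dn asynchronous replicate 2, the library with the longest list.

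Genes of lists for stem cell, chromatin and mitotic functions were checked for a member at their promoter. Of 34 mitotic genes 1 had one, Cenpe, which encodes a kinetochore motor protein. Of 22 cohesin, CTCF and condensin genes 1 had one, Ncaph, a subunit of condensin I. Of 22 genes of H3K9 methylation and HP1, 1 had one, Daxx, a chaperone of histone H3.3, at the start it shares with BC051226. These are shares of 2.94% to 4.55%, from 1 gene each, beside 1.41% of all protein-coding genes. None of the 32 pluripotency genes, 26 Polycomb genes, 15 DNA methylation genes, 33 genes of RNA polymerase II and Mediator, 36 lineage transcription factors or 86 ribosomal protein genes had one. Of 394 genes named Zfp, which encode zinc-finger proteins, 6 (1.52%) did: Zfp14, Zfp263, Zfp438, Zfp493, Zfp704 and Zfp786. Zfp438 held 2 members at adjacent sites.

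The Cenpe region (chr3:135212495-135212721) had 12 summit fragments in WT asynchronous replicate 2 and no call in replicate 1, 7 and 11 in Suv39h dn asynchronous cells, 5 on WT chromosomes in replicate 1 with no call in replicate 2, and 7 and 7 on Suv39h dn chromosomes. The Ncaph region (chr2:127133800-127134178) had 5 and 10 in WT asynchronous cells, 8 in Suv39h dn replicate 2 alone, 4 and 5 on WT chromosomes and 4 in Suv39h dn replicate 1 alone. The Daxx region (chr17:33909053-33909274) was not called in replicate 1 of the WT asynchronous and WT chromosome libraries and had 5 to 11 fragments in the others. Each of these members missed 2 libraries. The fewest summit fragments of any peak were 3 or 4 in every library.

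Sequence motifs were counted within 100 bp of the summit on both strands, and a match is a description of letters, not of binding. The NF-Y motif (CCAATNNG), the CCAAT box of many promoters, was found in 26 member regions (5.22%), compared with 319 of the 1228 regions of all 3 preparations and 6.53% of all merged regions. Among promoters alone it was found in 7.07% of the members and 12.5% of the promoters with 1 mitotic library. Promoters of all 3 preparations held it in 31.6%, those of asynchronous cells alone in 13.9% and those of chromosomes alone in 3.43%. All promoter regions held it in 8.33%. The Sp motif (GGGGCGGGG) was found in 7.07% of promoter members and 14.1% of promoters of all 3 preparations. The share was 7.51% at promoters of asynchronous cells alone, 2.54% at those of chromosomes alone and 6.03% at all promoter regions. The YY1 motif was found in 56 member regions (11.2%), of which 40 were in family 2, and in 6.43% of all 3 preparations and 3.12% of all merged regions. Among promoters it was found in 5.05% of the members and 6.78% of all 3 preparations. The share was 1.89% at promoters of asynchronous cells alone, 1.07% at those of chromosomes alone and 1.56% at all promoter regions.

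The insulator protein CTCF and the orphan nuclear receptor Esrrb are among the factors that have been described on mitotic chromosomes. The CTCF motif (AGNGGGCGC) was found in 13 member regions (2.61%, exact 95% interval 1.40 to 4.42%), compared with 2.61% of all 3 preparations and 1.79% of all merged regions. The Esrrb motif (TNAAGGTCA) was found in 4 (0.803%, 0.219 to 2.04%), compared with 0.244% of all 3 preparations and 1.27% of all merged regions. The octamer motif (ATGCNAAT), bound by Oct4, was found in 3 (0.602%), compared with 1.55% and 2.78%. The CTCF and Esrrb counts are too small to order these sets. The exact 95% interval of the octamer share was 0.124 to 1.75%, for counting error only. It holds the share of all 3 preparations and lies below that of all merged regions. Among promoters alone, the CTCF motif was found in 3.03% of members, 2.86% of all 3 preparations and 2.61% of all promoter regions. These shares were 1.35, 0.106 and 0.770% for Esrrb and 0.337, 1.80 and 1.52% for the octamer. The octamer interval at promoter members, 0.00852 to 1.86%, holds both of the other shares. Of the remaining motifs, those of NRF1 (GCGCNTGCG), Klf (GGGNGTGGC), ETS (CCGGAAGNG) and CRE (TGACGTCA) were found in 2.41, 3.82, 3.61 and 1.41% of the members, compared with 6.35, 6.76, 4.80 and 2.69% of the regions of all 3 preparations and 0.943, 2.83, 0.878 and 0.389% of all merged regions. Those of ZNF143 (ACTACAATT), TEAD (ACATTCC) and T-box factors (AGGTGTGA) were found in 1, 6 and 3 members (0.201, 1.20 and 0.602%). Their shares were 0.896, 1.14 and 0.244% in all 3 preparations and 0.0756, 2.85 and 1.16% in all merged regions. Among promoters alone, NRF1, Klf, ETS and CRE motifs were found in 3.37, 5.05, 4.71 and 2.36% of members. All 3 preparations had 8.05, 8.26, 6.04 and 3.50%, and all promoter regions 3.28, 3.58, 2.30 and 0.965%.

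The members with an Esrrb motif and the highest ranks were the promoters of Dctd, the deaminase of deoxycytidylate, of Srek1ip1 with Cwc27, and of Kat7, a histone acetyltransferase. The Dctd region (chr8:48109835-48110094) had 9 and 10 summit fragments in WT asynchronous cells, no call and 13 in Suv39h dn, 10 and 18 on WT chromosomes and 8 and 12 on Suv39h dn chromosomes. Those with a CTCF motif were the promoters of Ccdc59 and C1qbp and a region of family 2, and those with an octamer were an intergenic region 1961 bp from the start of Mir17hg, the host gene of a microRNA cluster, a region of family 1 and the promoter of Snai3.

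Summits of the preparations did not lie at the same base. The distance between the median asynchronous and the median chromosome summit of a member had a median of 71.0 bp (95% interval over regions 66.0 to 82.0), with quartiles of 28.6 and 144 bp, compared with 45.0 bp in the regions of all 3 preparations. At promoter members the direction was the same in every library. Positions were measured from a single start site per region, with positive values downstream. This was the site nearest to the region's summit of highest fold percentile over all libraries. Promoter members ranked higher in the chromosome lists, so that summit can come more often from a chromosome library. The effect of this choice was not tested. The median summit of asynchronous cells was at -36.0 and -32.5 bp in the WT libraries, -35.5 and -32.5 bp in those of Suv39h dn. On chromosomes it was at 31.5 and 22.0 bp (WT), 8 and 17.0 bp (Suv39h dn). The means were -34.1 ± 1.89 bp in asynchronous cells and 19.6 ± 9.81 bp on chromosomes (SD, n = 4 libraries each), a difference of 53.8 bp. This difference was larger than the spread between libraries. It comes from the summits of the peaks that chose the members and carries no test. This measure was chosen after the data were seen.

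The regions of all 3 preparations gave a difference in the same direction. There the median summit lay between -76.0 and -71.0 bp in asynchronous cells, between -80.0 and -73.0 bp in mitotic cells and between -33.0 and -29.0 bp on chromosomes. Their chromosome minus asynchronous difference was 41.3 bp, again without a test, since calls in these libraries chose these regions too. A summit downstream of the start was found at 36.7 to 38.5% of promoter members in the asynchronous libraries and at 51.1 to 57.1% in the chromosome libraries.

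**Figure D4:**
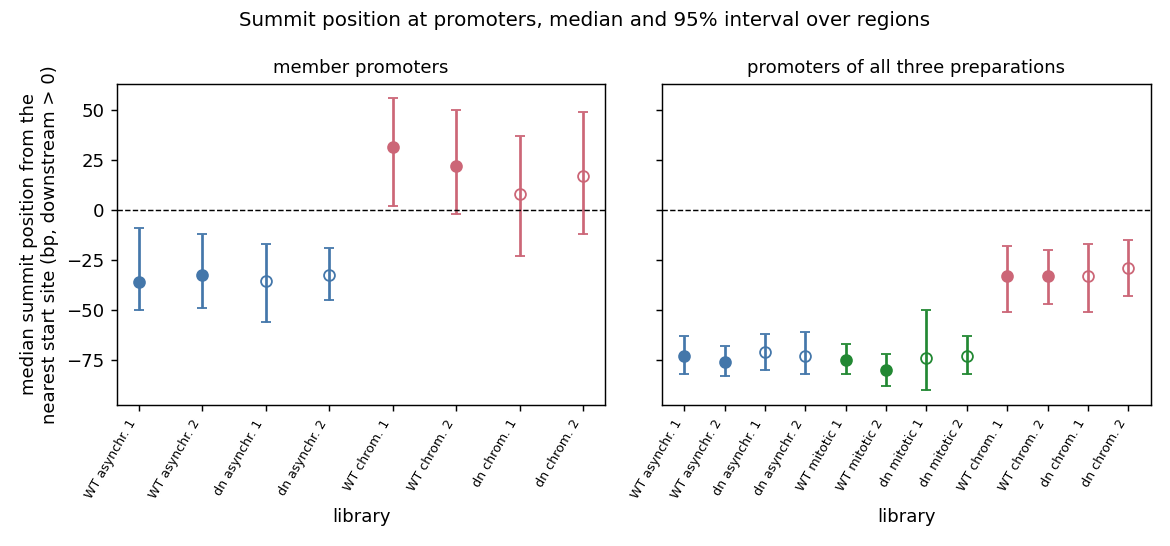
Median position of the peak summit per library, in bp with downstream positive, with 95% order-statistic intervals over regions. Positions are from the annotated start site nearest to the region's summit of highest fold percentile. Left, the 297 promoter members, and right, the 944 promoters of all 3 preparations. Filled points are WT and open points Suv39h dn. The asynchronous libraries lie at -36.0 to -32.5 bp and the chromosome libraries at 8 to 31.5 bp in the members.

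The absence from the mitotic lists was set beside the depth of those lists. The lowest number of summit fragments of any peak was 4 in each mitotic library. The enrichment of a member was taken as its summit fragments over the lowest background of the library, averaged over the asynchronous libraries that called it, and multiplied by the lowest background of each mitotic library. The expected number had a median between 6.42 and 7.53 fragments, and 490 of the 498 members (98.4%) would have been expected at or above 4 fragments in all mitotic libraries. This average leaves out the libraries that missed a member, 168 and 191 times in replicate 1 of the WT and Suv39h dn asynchronous groups, and is therefore high. With 0 fragments for each such library, which is too low, the number was 387 (77.7%). However, regions that the mitotic libraries did call fell short of the same expectation. This ratio was taken at regions of all 3 preparations with recovered summit fragments in the mitotic library itself. These were 1112 and 1136 regions in WT, 471 and 1132 in Suv39h dn. The median ratio of observed to expected fragments was 0.626 and 0.677 in the WT mitotic libraries and 0.762 and 0.809 in Suv39h dn. Regions that a library missed are left out, so the ratios can be too high, above all in Suv39h dn replicate 1. With these ratios applied, the expected median was 4.08 and 5.10 fragments (WT), 4.89 and 5.44 (Suv39h dn), and 252 members (50.6%) were expected at or above 4 fragments in every mitotic library. The other members were expected below this floor in at least 1 mitotic library. How far depth contributed to the absence was not tested. In these bulk samples, fewer cells with an open site and less open DNA per cell cannot be told apart.

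The share of regions without a mitotic peak was lower where the enrichment in asynchronous cells was higher. This is a description, since the calls chose the members. Of the 2850 regions called in at least 3 asynchronous and 3 chromosome libraries, 2805 had a recovered enrichment, and they were split at the quartiles of the members. In the lowest of these 4 ranges 125 of 169 regions (74.0%) had no mitotic peak, followed by 48.6% and 30.5%, and in the highest range 125 of 1974 (6.33%). The highest range was open upward and ran from 38.8 to 787, whereas the highest member lay at 102. The median enrichment was 31.5 at the members, 40.8 at regions with 1 mitotic library and 70.3 at regions with 3 or 4.

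**Figure D5:**
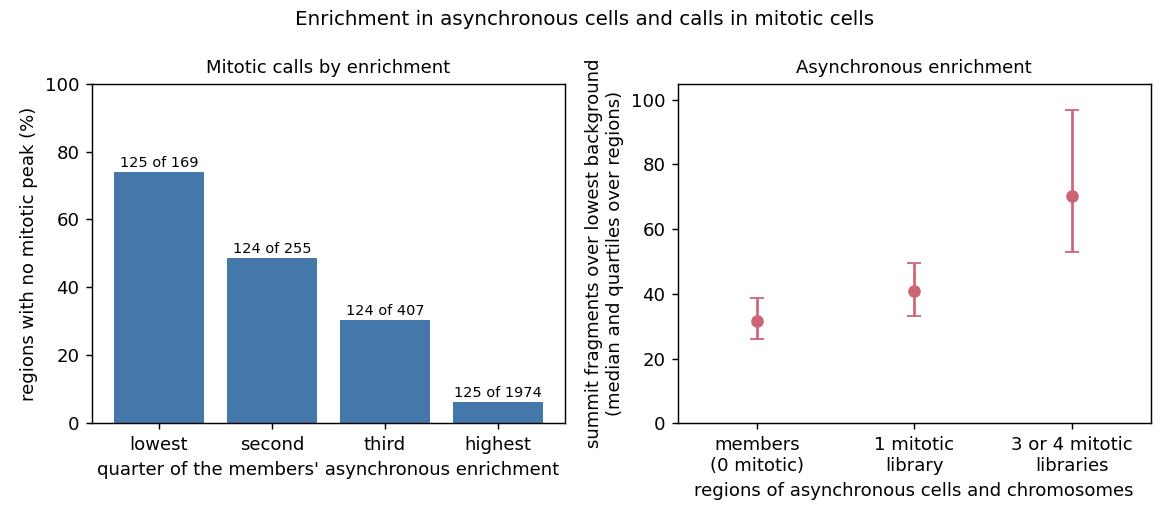
Left, percent of regions with no mitotic peak, by range of the enrichment in asynchronous cells (split at the members' quartiles), with counts. The highest range is open upward and reaches 787. Right, asynchronous enrichment (summit fragments over lowest background, median and quartiles over regions) of the 498 members, the 527 regions with 1 mitotic library and the 1228 regions with 3 or 4, with medians of 31.5, 40.8 and 70.3.

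The genotypes were compared over libraries, as a description without a test, since the peak calls chose the members and each member can lack at most 1 of the 4 libraries of a preparation. By the numbers of members called, given above, the genotypes overlapped in both preparations. The mean difference, Suv39h dn minus WT, was -0.653 percentage points, from 83.8% in WT to 83.2% in Suv39h dn. That of the median fold percentile was 1.76.

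The families were examined separately because family 1 includes L1 promoter sequence, and H3K9me3 placed by the Suv39h enzymes marks many LINE-1 elements. No element is named for family 2. Of family 1, WT called 56.8 and 94.3% in asynchronous cells and 94.3% in both chromosome libraries. Suv39h dn called 63.6 and 100% in asynchronous cells and 89.8% in both chromosome libraries. The genotype difference was thus 6.25 points in asynchronous cells, where the libraries of a genotype lay further apart than this. On chromosomes it was -4.55 points, from 83 regions in each WT library and 79 in each Suv39h dn library. Over all members the difference on chromosomes was -1.20 points, with overlapping genotypes. Peaks matching family 1 made up 5.65% (replicate 1) and 4.90% (replicate 2) of the whole WT chromosome lists. For Suv39h dn chromosomes these shares were 5.42% (replicate 1) and 5.85% (replicate 2), so here too the genotypes overlapped. The calls at the members chose the members, so the differences are descriptions and no test of the genotype. Family 2 had differences of -5 points in asynchronous cells and -4 points on chromosomes. Its calls were 72 and 92% (WT) and 54 and 100% (Suv39h dn) in asynchronous cells. On chromosomes they were 92 and 86% (WT) and 88 and 82% (Suv39h dn). In both preparations the libraries of a genotype lay further apart than the difference.

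The whole lists held many further copies. Peaks in regions that matched either family made up 2.67 and 5.05% of the WT and 2.86 and 8.58% of the Suv39h dn asynchronous lists, 0.556 and 1.46% of the WT and 0.925 and 2.52% of the Suv39h dn mitotic lists, and 8.89 and 7.96% of the WT and 8.64 and 8.73% of the Suv39h dn chromosome lists. All mitotic libraries lay below all asynchronous and chromosome libraries. The families were built from regions with no mitotic peak, and the mitotic lists were the shortest. This order is therefore a description that follows in part from the rule. Some mitotic peaks did match a family. Within asynchronous and mitotic cells the share was higher in the longer list of each genotype. The mean difference between genotypes was 0.944 percentage points, a measure chosen after the data were seen. No test is given for it, since the families were built from members that these calls chose. The difference was -0.00895 points without Suv39h dn asynchronous replicate 2, the longest list of all.

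The label of the cells was checked at the promoters of 10 ESC and 6 fibroblast marker genes. The asynchronous libraries had a peak at 6 to 9 of the ESC markers and at 0 or 1 of the fibroblast markers, the chromosome libraries at 4 to 9 and 1 or 2, and the mitotic libraries at 0 to 4 and 0. The library with 0 ESC markers was Suv39h dn mitotic replicate 1, the shortest list, with 1729 peaks. Without that library the rule gave 505 members. None of these 16 genes had a member at its promoter.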

How the data were processed

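ATAC-seq peak lists of 12 libraries were analysed. The authors trimmed reads with Trim Galore 0.4.4, aligned them with Bowtie2 2.2.9 to mm10, merged technical runs, removed duplicate, improper and mitochondrial pairs, shifted read ends, kept fragments under 100 bp and ran MACS2 on every library separately. The MACS2 version and the mapping quality filter are not given in the sources used here. Each deposited peak has a fold enrichment (a ratio), −log10 p and q values and a score. The lists hold no counts, so that the study's count-based differential test was not run.

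Lists held 1729 to 80126 peaks on chromosomes 1 to 19 and X. Summit fragments and background were solved from fold and p for peaks with −log10 p under 60. GENCODE M21 gave start sites and the GRCm38.p6 genome gave sequence. Matches were made with BLAST 2.17.0, and calculations with Python 3.11.15, numpy 2.4.6, scipy 1.17.1, pandas 2.3.3 and networkx 3.6.1. The functions were tested on simulated lists. The permutation test planned for the genotypes is not given, since it used the calls that chose the members. Those of summit positions and family shares are not given either, since they used the members' peaks or families built from the members. Primers of the study were matched exactly, and other thresholds, list lengths, definitions and omitted libraries were tried as alternatives. The members and gene lists were chosen with earlier results of these data known. Members named were the 15 called in all 8 libraries with the highest mean fold percentile, those at listed genes (at most 6 a list), the 3 highest per motif (CTCF, Esrrb, octamer) and the 3 highest per genotype missing 1 library of the other genotype. The family regions printed and Zfp786 were added after the data were seen.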

Additional observations from a re-analysis of the deposited data

How the results depend on the processing

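The number of members depended on the calls. It was 41 with only peaks of q at or under 1e-05, 879 with lists of equal length within each preparation, 38 when peaks had to cover 50% of the region, 1025 with at most 1 mitotic library and 45 with all 4 libraries of both preparations, compared with 498. Equal length cut each mitotic list to 1729 peaks, so that few mitotic peaks were left to exclude a region. The asynchronous lists kept 22295 peaks each and the chromosome lists 44552. Leaving out 1 library, with 2 of the remaining 3 of its preparation then required (none of the remaining 3 for mitotic cells), gave 505 to 1419, the highest without WT asynchronous replicate 1 and 1388 without Suv39h dn asynchronous replicate 1, 748 without WT chromosomes replicate 1 and 781 without Suv39h dn mitotic replicate 2. The promoter share of 60.4% became 78.0, 83.3, 73.7, 69.3 and 71.1% under the first 5 settings, 55.5% with no mitotic peak within 1 kb, 55.4% within 500 bp of a start site, 82.5% outside the families, and 45.6 to 66.5% with a library left out. The summit distance of 71.0 bp became 106 bp with q at or under 1e-05, 84.5 bp with equal lengths, 17.0 bp with 50% coverage, 62.0 bp with all 4 libraries and 59.8 to 73.0 bp with a library left out. The CTCF share was 4.88% with q at or under 1e-05 and 1.90 to 3.70% with a library left out. The Esrrb share was 4.88% with q at or under 1e-05, 0% with 50% coverage and 0% with all 4 libraries, and 0.504 to 0.931% with a library left out. The members expected above the mitotic floor were 225 with the median of each list as the floor and 252 after rescaling, compared with 490, and 387 with uncalled asynchronous libraries as 0. The cause of these changes was not tested.

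The replicate numbers are shared by the labels of the groups, but nothing says that a number marks a shared culture. The replicate block leaves the genotype differences at -0.653 points (share of members called) and 1.76 (fold percentile), and no p is given for either, since the calls chose the members. The fold percentile difference turned to -5.80 with q at or under 1e-05 and to -1.13 with equal lengths, and ranged from -4.51 to 8.03 with a library left out. The difference in calls ranged from -10.1 to 8.79. No p is given for the summit position or the family share of the lists, which rest on peaks or families taken from these members. The summit position difference kept its direction with each library left out (51.4 to 56.1 bp). Permuting preparations over all 8 libraries, without regard to genotype, gave exact p = 0.0286, with 53.8 bp. This is again the smallest value that its 70 arrangements allow. The family share difference ranged from -0.00895 to 1.90 points. At 90% identity over 150 bp the families held 116 members in place of 138. The settings outside the families, for the summit position and for the families were chosen after seeing the data.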
